A study of Homo sapiens with 7 samples.

Results

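SYPL1, THAP5, RHEB and AGBL3 are 4 protein-coding genes of the distal long arm of chromosome 7, beyond 100 Mb from the short-arm end. They were chosen because earlier work on the same libraries found their nascent RNA signal lower in cells without CFAP20, so that difference is described here and not tested. They are 4 of 1715 genes whose body signal could be tested, out of 2032 genes located in the deposited windows. Nascent RNA was measured by BrU-seq, in which cells take up bromouridine and an antibody pulls down the RNA that contains it. Cells received 2 mM for 30 min. CFAP20-KO (3 libraries), rescue (1 library, CFAP20-KO with CFAP20-GFP added back) and WT (3 libraries) were compared. All 7 libraries came from RPE1 cells, a human line of immortalised retinal pigment epithelium, and every line carried iCas9 and the p53/puro-dKO, the WT line included. The labels give neither the number of clones behind a line nor whether replicates were separate cultures, so spread between libraries may be technical.

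The 4 genes have different roles. SYPL1 encodes a synaptophysin-like membrane protein of transport vesicles, found outside neurons. THAP5 encodes a nuclear protein with a THAP zinc finger, a domain that binds DNA. RHEB encodes the small GTPase that switches on mTORC1, the kinase complex that couples nutrient and growth factor signals to protein synthesis, and the TSC complex holds RHEB in its inactive form. AGBL3 encodes a cytosolic carboxypeptidase of the family that trims glutamate chains from tubulin. CFAP20 is known as a protein of the inner junction of ciliary microtubule doublets. The signal of the targeted gene was not analysed here, and so does not serve as a check of the knockout labels.

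The authors deposited coverage of the transcribed strand in bins of 200 bp, after a scaling of their own, and a gene's body signal is the mean over its bins. Each library's values move in steps that are finer the deeper it was sequenced: the step was 0.393 in CFAP20-KO replicate 1, the shallowest library, and 0.0733 in WT replicate 2, the deepest. CFAP20-KO replicate 1 correlated with the other libraries at 0.826 to 0.952 over tested genes, and CFAP20-KO replicates 2 and 3 with each other at 0.998. Libraries share a number in the column names of a deposited table, called a run here, although what it stands for is not given. CFAP20-KO replicate 1 shares it with WT replicate 1, CFAP20-KO replicates 2 and 3 with WT replicate 3, and the rescue with WT replicate 2. Results for the 4 genes are therefore given within runs and without CFAP20-KO replicate 1 as well.

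The stretches before the start sites are shown because these 4 genes were lower together and because 1 of them shares its promoter region with another gene. Sequences are from RefSeq (build GRCh38.p14), on the strand of the gene. Each shows the longest stretch, within 250 bases before the start, that no annotated exon of any gene covers, and capitals mark matches to the motifs named after them.

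SYPL1: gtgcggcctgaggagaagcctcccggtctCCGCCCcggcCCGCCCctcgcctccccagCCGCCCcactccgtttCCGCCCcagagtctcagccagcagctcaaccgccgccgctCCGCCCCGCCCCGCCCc
THAP5: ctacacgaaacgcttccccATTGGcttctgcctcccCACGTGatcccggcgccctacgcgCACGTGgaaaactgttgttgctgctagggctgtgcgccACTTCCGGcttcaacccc
RHEB: tctccgcctctcCCGCCCGCCCcta
AGBL3: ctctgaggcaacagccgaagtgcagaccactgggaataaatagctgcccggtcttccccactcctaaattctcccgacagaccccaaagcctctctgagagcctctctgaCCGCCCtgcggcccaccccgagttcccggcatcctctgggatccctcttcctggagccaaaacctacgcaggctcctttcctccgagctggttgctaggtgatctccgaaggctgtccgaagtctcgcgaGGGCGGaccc

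The SYPL1 stretch lies at chr7:106112348-106112478 on the minus strand, the THAP5 stretch at chr7:108569751-108569866 (minus), the RHEB stretch at chr7:151520121-151520145 (minus) and the AGBL3 stretch at chr7:134986258-134986507 (plus). In the full 250 bases, the GC box GGGCGG occurred 8 times before SYPL1, 4 times before RHEB, 2 times before AGBL3 and not before THAP5, and neighbouring matches overlap in places. It is held by 42.6% of all 35116 promoters searched on both strands. The THAP5 window instead held 1 CCAAT box (CCAAT, 32.0% of promoters), 2 E-boxes (CACGTG, 6.35%) and 1 ETS motif (CCGGAAGT, 3.42%). RHEB also held 2 CCAAT boxes. TATAAA, the NRF1 motif, ATGGCGGC (YY1) and TGACGTCA (CRE) were found in none of the 4 windows, so no searched motif was common to all 4. The windows held 31 (SYPL1), 21 (THAP5), 24 (RHEB) and 14 (AGBL3) CpG, against a median of 11 over all promoters. THAP5 was the one with a close partner: the start of DNAJB9, a coding gene on the opposite strand, lies 161 bp from its own.

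SYPL1 (minus strand, 106090505 to 106112312 in hg38) had a body signal of 1.76, 3.79 and 3.88 in CFAP20-KO replicates 1, 2 and 3, against 5.05, 7.11 and 8.33 in WT replicates 1, 2 and 3. Every CFAP20-KO library lay below every WT library, and CFAP20-KO replicate 1 was the lowest. In such bulk libraries fewer transcribing cells and less RNA per cell cannot be told apart. The mean was 3.14 ± 1.20 in CFAP20-KO and 6.83 ± 1.66 in WT (SD, n = 3 each), a log2 change of -1.15 (SE 0.38). Unless stated otherwise, log2 changes are CFAP20-KO minus WT of log2(signal + 0.0855), a scale that understates changes of low genes. Within the run of WT replicate 1 the SYPL1 change was -1.48, and within the run of WT replicate 3 it was -1.10.

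THAP5 (minus strand, 108562132 to 108569706) had 4.83, 8.10 and 8.95 in CFAP20-KO, against 12.3, 15.6 and 17.5 in WT, again without overlap. Its means were 7.29 ± 2.17 in CFAP20-KO and 15.1 ± 2.61 in WT, a log2 change of -1.08 (SE 0.33). The changes within the runs were -1.34 and -1.03. Longer annotated transcripts of PNPLA8 run through THAP5 on the same strand and overlap 7.535 kb of it, so reads of the 2 genes cannot be told apart there. PNPLA8 itself, measured over its canonical transcript past the end of THAP5, had a body signal of 1.17 in CFAP20-KO and 1.79 in WT, well below that of THAP5.

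RHEB (minus strand, 151466012 to 151519895) had 5.26, 7.22 and 7.43 in CFAP20-KO, against 9.89, 15.1 and 11.5 in WT. The groups did not overlap, and here WT replicate 2 was the highest library. Means were 6.64 ± 1.20 in CFAP20-KO and 12.2 ± 2.64 in WT, a log2 change of -0.86 (SE 0.30), the smallest of the 4. Within the runs it was -0.90 and -0.65.

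AGBL3 (plus strand, 134986508 to 135135778) had the lowest body signal of the 4 genes, with 0.258, 0.702 and 0.722 in CFAP20-KO against 0.981, 1.66 and 1.89 in WT. The highest CFAP20-KO library again lay below the lowest WT library. Means were 0.561 ± 0.263 in CFAP20-KO and 1.51 ± 0.474 in WT, a log2 change of -1.36 (SE 0.42), and -1.63 and -1.31 within the runs. Only its first 100 kb at most was measured, and a long non-coding RNA on the opposite strand overlaps 11.6 kb of it. The low body signal is a mean over a long stretch with little signal. Over its first 3 kb AGBL3 had 15.6, 16.4 and 27.3 in WT, above SYPL1 with 6.60, 8.10 and 9.74.

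**Figure D1:**
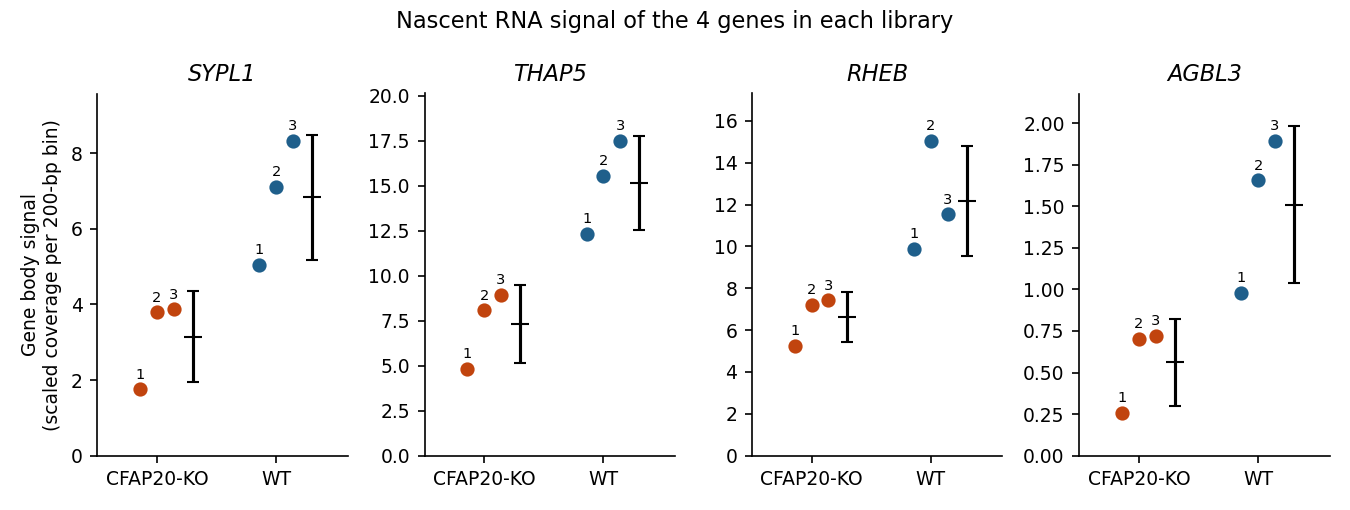
Gene body signal (scaled coverage per 200-bp bin, linear axis from 0) of SYPL1, THAP5, RHEB and AGBL3 in the 3 CFAP20-KO and the 3 WT libraries; numbers are replicates, and the black mark and bar give the mean and SD. In each gene all 3 CFAP20-KO points lie below all 3 WT points, for example 1.76 to 3.88 against 5.05 to 8.33 for SYPL1.

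All 4 genes passed the filter on low signal, and would also have passed on their CFAP20-KO mean alone. Complete separation with CFAP20-KO lower was seen in 83 of 1715 tested genes (4.84%), and in all 4 of these genes, which were chosen on this contrast. In the order of log2 changes over the tested genes, counted from the lowest, AGBL3 was number 9, SYPL1 number 18, THAP5 number 22 and RHEB number 52. Without CFAP20-KO replicate 1 the log2 change was -0.79 for SYPL1, -0.81 for THAP5, -0.70 for RHEB and -0.95 for AGBL3. At an adjusted p of 0.05, limma called 0 of the 1715 genes higher (0.0%) and 0 lower (0.0%), with 130 genes at an unadjusted p under 0.05 (7.58%). With the run as a covariate, 100 genes were higher (5.83%) and 81 lower (4.72%), or 35 and 111 after centring each library on its median. The 81 include the 4 genes, which were chosen on this contrast, so nothing is read from their calls. WT replicate 2 has no weight in those fits.

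The lower signal of the 4 genes was present from the start of transcription on. Over the first 3 kb, RHEB had 14.2, 8.33 and 10.6 in CFAP20-KO against 26.4, 17.8 and 27.9 in WT, and AGBL3 had 4.43, 9.65 and 10.5 in CFAP20-KO against 15.6, 16.4 and 27.3 in WT. SYPL1 and THAP5 were also separate there, with log2 differences of the group means of -1.37 and -0.95. From 5 kb to 0.5 kb before each start the mean signal was at most 0.132 in any library.

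In RHEB the 10-kb segments from 0 to 50 kb had log2 differences of group means between -1.0 and -0.74, and CFAP20-KO was below WT without overlap in all 5. SYPL1 had -1.06 over its first 10 kb and -1.07 over the next 10 kb. AGBL3 had most of its signal near the start. Its first 10 kb had 2.03, 5.65 and 5.71 in CFAP20-KO against 7.63, 11.5 and 15.3 in WT, and from 20 to 30 kb 0.039, 0.147 and 0.158 in CFAP20-KO against 0.408, 0.903 and 0.538 in WT. Beyond 30 kb no library exceeded 0.201, near the pseudocount, so a difference was not detectable at this depth. In the 5 kb past the annotated end, THAP5 and RHEB were again separate, at -0.50 and -0.74. SYPL1 overlapped there, with 1.05, 2.05 and 2.49 in CFAP20-KO against 1.64, 3.61 and 3.38 in WT. Longer transcripts of PNPLA8 also run on the same strand through the stretch past the end of THAP5. Reads of PNPLA8 and THAP5 cannot be told apart in it either.

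**Figure D2:**
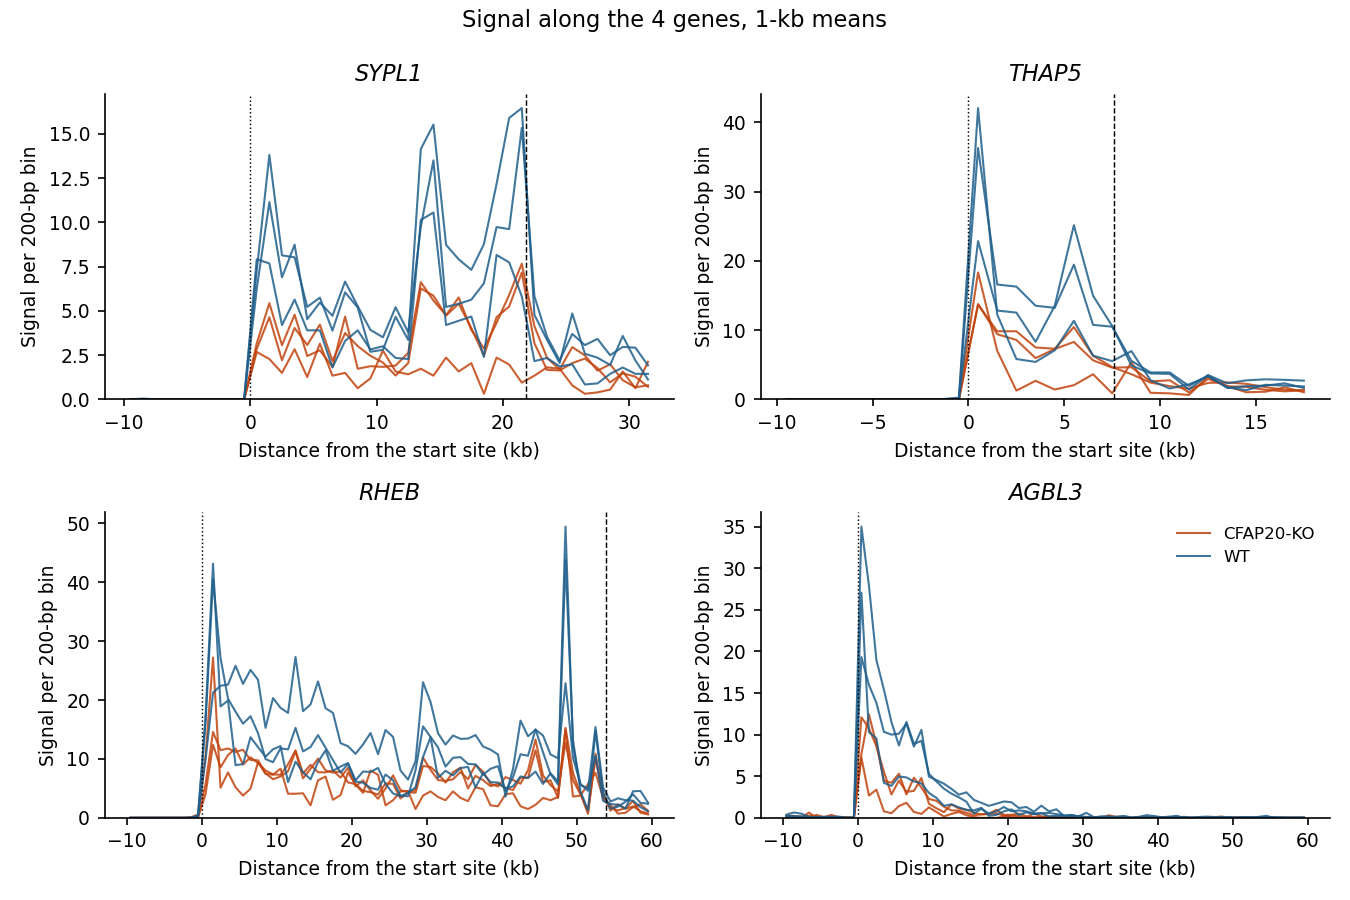
Signal in 1-kb means along the 4 genes by distance from the start site in kb, 1 line per library (CFAP20-KO in orange, WT in blue); the dotted line is the start and the dashed line the annotated end where it falls inside the panel. In the 10 kb shown before the start no 1-kb mean exceeds 0.645, and in RHEB the group mean of CFAP20-KO is below that of WT in each 10-kb segment, by -1.0 to -0.74.

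Introns are where nascent RNA can be read apart from any mature RNA that is carried along. Counting bins more than 400 bp from an exon, the introns together gave 1.84, 3.43 and 3.46 in CFAP20-KO against 4.51, 6.18 and 6.94 in WT for SYPL1. For RHEB they gave 5.155, 7.09 and 7.38 in CFAP20-KO against 9.12, 15.1 and 10.8 in WT. All 4 genes were separate over their introns, with log2 differences of -0.99 for SYPL1, -0.86 for THAP5, -0.83 for RHEB and -1.37 for AGBL3. Bins placed in exons differed by -1.49, -1.30, -0.54 and -1.38 in the same order of genes, and RHEB overlapped between the groups there.

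Taken 1 by 1, the introns with at least 3 such bins were lower in CFAP20-KO in 3 of 3 for SYPL1, 1 of 1 for THAP5, 5 of 5 for RHEB and 9 of 10 for AGBL3. The long first intron of RHEB had 6.29, 7.74 and 7.84 in CFAP20-KO against 10.6, 17.5 and 12.3 in WT. Its introns 3, 4 and 7 overlapped between the groups, with differences of -0.57, -0.78 and -0.42. In AGBL3, introns 2, 3 and 4 were separate, at -1.32, -1.49 and -1.48. From intron 5 on no library exceeded 0.134, so differences there were not detectable at this depth.

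The genes around the 4 were then examined. Another 29 tested genes start beyond 100 Mb on chromosome 7. Of these, 26 (89.7%) had a lower mean log2 signal in CFAP20-KO, against 562 of all 1715 tested genes (32.8%), and their median log2 change was -0.71 (quartiles -0.92 and -0.47), against 0.17 over all tested genes. Complete separation with CFAP20-KO lower was seen in 16 of the 29 (55.2%), against 4.84% of all. Within the runs, the median of the 29 genes was -0.88 and -0.60, against 0.05 and 0.20 over all tested genes. In both runs, 24 of the 29 were lower (82.8%), against 379 of all 1715 (22.1%). Without LAMB1, ZNF746 and IMMP2L, 3 genes of the region already known to be lower in these data, it was -0.70. The region was picked because the 4 genes lie in it, so these values are a description.

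On the rest of chromosome 7, 55 tested genes starting up to 100 Mb had a median of -0.00. Of these, 28 (50.9%) were lower, against 32.8% of all tested genes, and 2 (3.64%) were separate with CFAP20-KO lower, against 4.84%. The 1627 tested genes of other chromosomes had a median of 0.18, with 31.0% lower. The tested gene just below the limit of 100 Mb, FAM200A, had 8.37 in CFAP20-KO and 9.89 in WT, a change of -0.23. The one just above it, FBXL13, had 0.604 in CFAP20-KO and 0.485 in WT, a change of 0.31. The 3 distal genes that were not lower, FBXL13, NAPEPLD and DNAJC2, were the first 3 beyond the limit. From RELN onward, at 103471789, all other tested genes had a negative change. Within the runs not all of them did: SRPK2 was at -0.08 and 0.10, and CALD1 at 0.15 and -0.58. Beyond 130 Mb, 15 of 15 genes other than RHEB and AGBL3 were lower, with a median of -0.72.

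**Figure D3:**
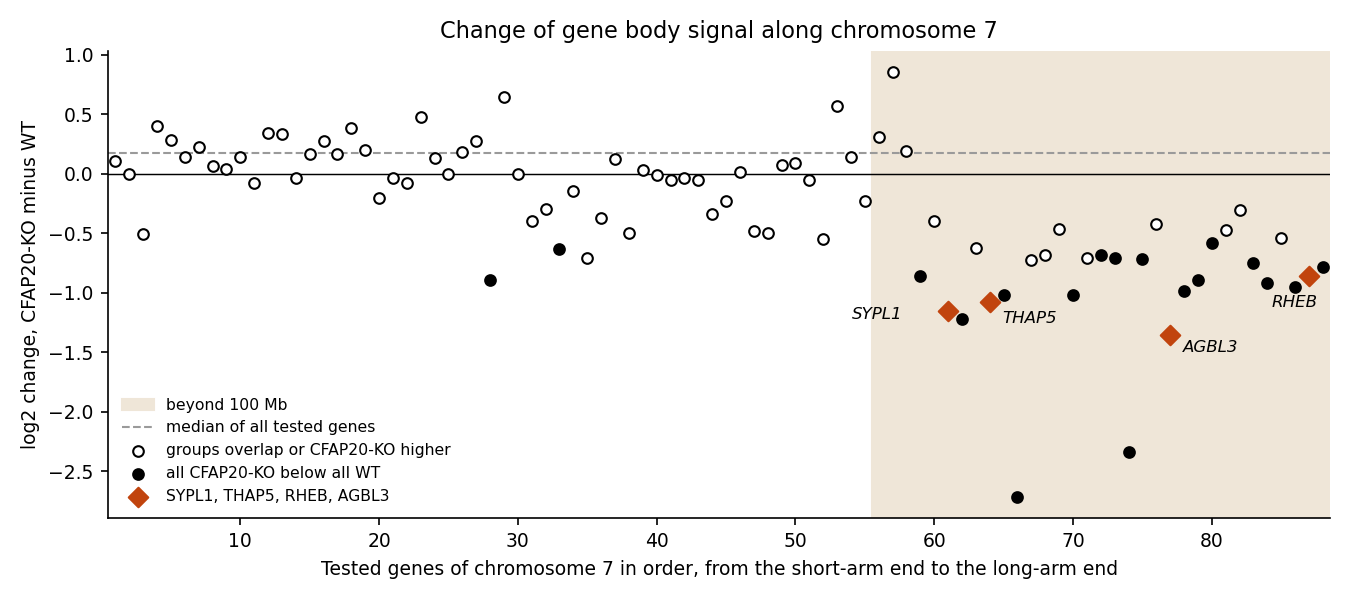
Log2 change (CFAP20-KO minus WT, limma) of the 88 tested genes of chromosome 7 in their order along it; the shaded part lies beyond 100 Mb, diamonds are the 4 genes, filled points are genes with every CFAP20-KO library below every WT library, and the dashed line is the median of all tested genes (0.17). To the left the points scatter around 0 (median -0.00), and to the right all but 3 lie below 0, with a median of -0.71 without the 4 genes.

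Whole windows were also measured. Only the bodies of the 4 genes were left out, so the windows still hold other tested genes and are not independent of them. Over all bins of the windows outside the bodies of the 4 genes, 36 of 40 windows of distal chromosome 7 were lower in CFAP20-KO, with a median log2 change of -0.83, and 28 (70.0%) were separate. Over all 1840 windows with signal the median was 0.10, 712 (38.7%) were lower and 145 (7.88%) were separate with CFAP20-KO lower. The 54 windows of chromosome 7 up to 100 Mb had a median of -0.02, with 29 (53.7%) lower and 6 (11.1%) separate.

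When the genome was divided into 10-Mb blocks, 176 blocks held at least 5 tested genes. Ranked from the lowest median, with the 4 genes left out, the 4 such blocks of distal chromosome 7 were numbers 2, 3, 4 and 10. Block 130 to 140 Mb had a median of -0.72, block 120 to 130 Mb -0.71, block 140 to 150 Mb -0.65 and block 100 to 110 Mb -0.40. Within the runs of WT replicates 1 and 3 the block 100 to 110 Mb was at -0.19 and 0.10, so its direction turned, while the other 3 stayed between -0.98 and -0.64. The lowest block of all was 50 to 60 Mb of chromosome 19, at -0.77, and blocks of chromosomes 12, 20 and 15 lay between, so low blocks were not limited to chromosome 7. Block 70 to 80 Mb of chromosome 7, before the limit of 100 Mb, was number 12, at -0.38. Within the runs it was at -0.55 and -0.60. The other ranked blocks of chromosome 7 up to 100 Mb were between numbers 21 and 102.

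**Figure D4:**
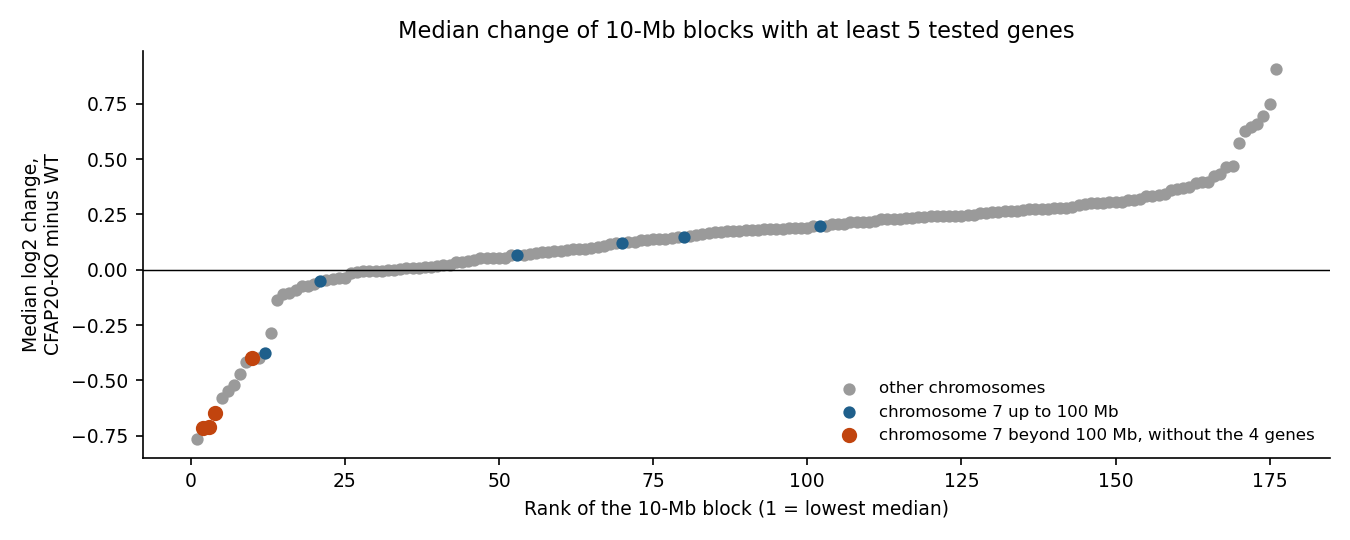
Median log2 change (CFAP20-KO minus WT) of tested genes in each of 176 blocks of 10 Mb, ranked from the lowest; orange points are the 4 blocks of chromosome 7 beyond 100 Mb, computed without SYPL1, THAP5, RHEB and AGBL3, blue points the blocks of the rest of chromosome 7, and grey points other chromosomes. The orange points are at ranks 2, 3, 4 and 10, with medians of -0.72, -0.71, -0.65 and -0.40.

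The 4 genes differed in how far they lay below this regional level. The change of RHEB lay 0.15 on the log2 scale below the regional median of -0.71 and inside the quartiles of the other 29 genes, with 12 of the 33 distal genes lower than it. SYPL1, THAP5 and AGBL3 lay outside the lower quartile, at -0.44, -0.36 and -0.64 relative to the median, and were numbers 5, 6 and 3 of 33 from the lowest. Within the runs of WT replicates 1 and 3, RHEB differed from the regional median by -0.02 and -0.05, THAP5 by -0.46 and -0.43, SYPL1 by -0.60 and -0.50, and AGBL3 by -0.76 and -0.71. Since the 4 genes were picked for their low values, their place below the median is not independent of that choice. The separation varied with the library as well. Relative to the WT mean, CFAP20-KO replicate 1 was at -1.88 for SYPL1, where the regional median was -1.09, and CFAP20-KO replicate 3 was at -0.77, where it was -0.52. Over all tested genes these 2 libraries were at -0.02 and 0.25.

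Up to 3 nearest tested genes on each side of the 4 gave 18 other neighbours, with only LMBR1 beyond RHEB. All belong to the 29 other distal genes counted above, so their counts are not independent of those. Distances between start sites ran from 43.6 kb (THAP5 to PNPLA8) to 13574.5 kb (THAP5 to AASS). Of the 18 neighbours, 17 were lower in CFAP20-KO, against 32.8% of all tested genes. Complete separation with CFAP20-KO lower was seen in 12, against 4.84% of all. The changes ran from -2.71 to 0.19, with a median of -0.82. LAMB1, a laminin subunit of the basement membrane, lies between SYPL1 and THAP5. It had 3.25, 4.36 and 4.24 in CFAP20-KO against 8.80, 9.59 and 9.36 in WT (log2 change -1.22, SE 0.26). The canonical transcript of PNPLA8, a phospholipase, starts 43.6 kb from THAP5, while longer ones run through THAP5 on the same strand. Over the canonical transcript PNPLA8 had 0.689, 1.32 and 1.51 in CFAP20-KO against 1.35, 2.04 and 1.97 in WT (-0.62, SE 0.36), so its groups overlapped.

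Beyond THAP5, IMMP2L, a mitochondrial inner membrane peptidase, had 0.322, 0.493 and 0.506 in CFAP20-KO against 0.861, 0.997 and 1.04 in WT (-1.02, SE 0.28). The largest difference was that of CTTNBP2, with 0.052, 0.064 and 0.074 in CFAP20-KO against 0.810, 1.57 and 0.539 in WT (-2.71, SE 0.38). Its CFAP20-KO signal was below the pseudocount, so it passed the filter through its WT signal alone. It is counted among the lower and the separate neighbours above. Toward SYPL1 from the centromere side, DNAJC2 had 5.10, 8.17 and 6.96 in CFAP20-KO against 5.85, 4.76 and 6.95 in WT, and was the 1 neighbour that was not lower (0.19, SE 0.30).

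Around AGBL3, the aldo-keto reductase gene AKR1B10 had 0.182, 0.232 and 0.107 in CFAP20-KO against 1.109, 0.507 and 2.91 in WT (-2.34, SE 0.55). BPGM, which makes 2,3-bisphosphoglycerate, had 0.436, 0.876 and 0.832 in CFAP20-KO against 0.944, 1.22 and 1.45 in WT (-0.72, SE 0.34). CALD1, the actin-binding caldesmon and the nearest tested gene by start site, had 2.72, 2.15 and 2.30 in CFAP20-KO against 2.44, 4.05 and 3.36 in WT (-0.42, SE 0.30). Its change had opposite signs within the runs, 0.15 and -0.58. Only the first 100 kb at most of CALD1 was measured. Near its annotated end, 18.5 kb before the AGBL3 start, the 1-kb mean was 2.83, 14.7 and 11.7 in CFAP20-KO against 1.44, 7.73 and 3.81 in WT. At 16.5 kb before that start it was 1.57, 10.0 and 13.9 in CFAP20-KO against 2.34, 13.6 and 8.70 in WT. The groups overlapped at both places. Around RHEB, EZH2, the histone H3 methyltransferase of Polycomb complex PRC2, had 1.49, 3.54 and 3.53 in CFAP20-KO against 4.25, 5.64 and 5.56 in WT (-0.92, SE 0.38). ZNF746, a zinc finger gene, had 3.66, 3.58 and 3.997 in CFAP20-KO against 9.53, 5.74 and 7.21 in WT (-0.96, SE 0.28). Both were separate between the groups.

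In the fit with the run covariate, 11 of the 29 other distal genes were called lower (37.9%, against 4.72% of all tested genes) and 1 higher. Those called lower at adjusted p values of 0.031 to 0.047 (limma, Benjamini-Hochberg) were LAMB1, IMMP2L, CTTNBP2, CCDC136, FLNC, AKR1B10, BPGM, KIAA1549, TTC26, MRPS33 and ZNF746. CTTNBP2 passed the filter through WT alone, so its call is not read as a result, although it is counted in the shares of this paragraph. Without LAMB1, ZNF746 and IMMP2L, already known to be lower in these data, 8 of 26 were called lower (30.8%). In FLNC the groups overlapped. Its signal in WT replicate 2, which has no weight in this fit, was 5.49, below every CFAP20-KO library. NAPEPLD was called higher, with 3.04 in CFAP20-KO and 1.68 in WT. In the fit without the run, limma called 0 of the 29, with 10 at an unadjusted p under 0.05 (34.5%), all 10 lower, against 50 lower of all 1715 tested genes (2.92%).

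The rescue library has no windows around origins, so it was read from windows around start sites. Those carry no gene names here, and genes were matched to them by the course of their coverage, which had to correlate at 0.9 or more in each of the 6 CFAP20-KO and WT libraries and by 0.1 more than in the next window. This matched 521 of the 1715 genes, SYPL1 (lowest correlation 0.952) and AGBL3 (0.9499) among them. THAP5 and RHEB were not matched. The choice was made after the files had been seen. With 1 rescue library there is no test, and the comparison is with WT replicate 2, which shares its run.

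SYPL1 had 2.75 in the rescue library against 6.92 in WT replicate 2, a log2 difference of -1.31. In the same windows CFAP20-KO had 1.80, 3.71 and 3.74, against 4.84, 6.92 and 7.99 in WT. AGBL3 had 0.580 in the rescue library against 1.59 in WT replicate 2, a difference of -1.33, with 0.229, 0.661 and 0.714 in CFAP20-KO against 0.948, 1.59 and 1.82 in WT. Both rescue values thus lay inside the range of CFAP20-KO and below every WT library. Of 9 other matched distal genes, 8 were lower in the rescue than in WT replicate 2, with a median of -0.66, and 7 (77.8%) lay below all WT libraries. CTTNBP2, which passed the filter through WT alone, is counted among the 7. Over all 521 matched genes the median was 0.10, 39.9% were lower than WT replicate 2 and 17.1% lay below all WT libraries. The 18 matched genes of chromosome 7 up to 100 Mb had a median of 0.18. Expression of CFAP20-GFP was not analysed here.

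**Figure D5:**
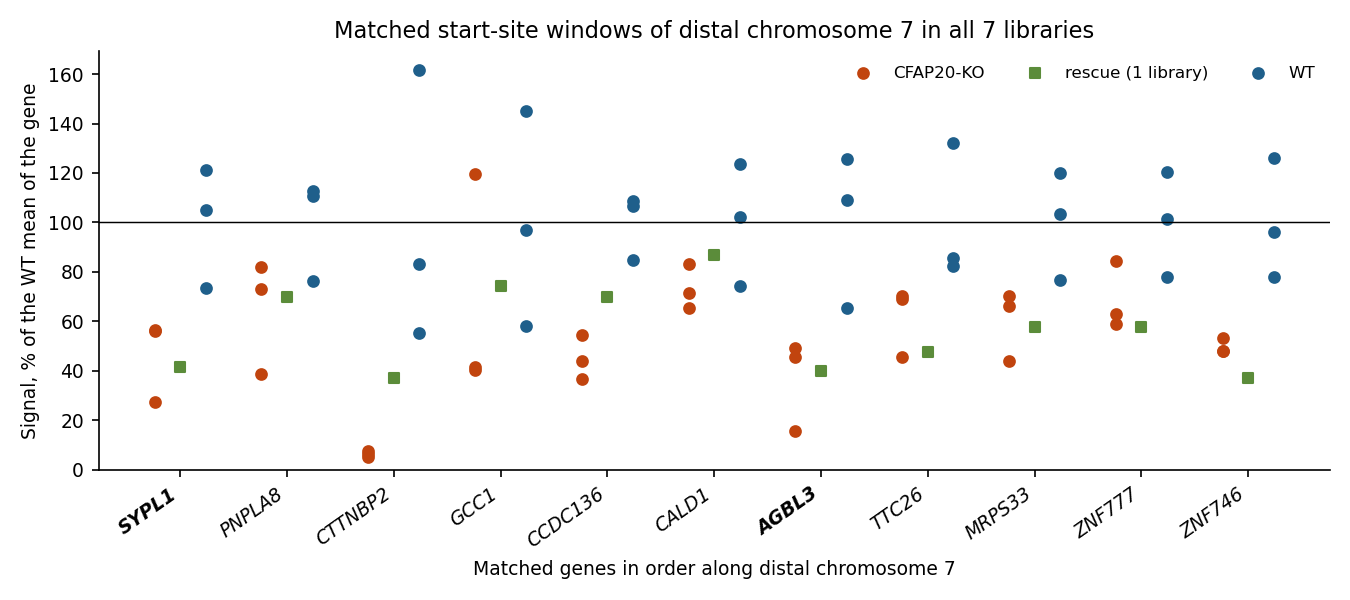
Signal of the 11 matched genes of distal chromosome 7 as a percentage of the gene's WT mean, for CFAP20-KO (3 libraries), rescue (1 library, squares) and WT (3 libraries), linear axis from 0. The rescue stands at 41.7% for SYPL1 and 39.95% for AGBL3, below their lowest WT libraries (73.5% and 65.3%), while in GCC1 and CALD1 it lies within the WT range.

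The splice index, a deposited fraction from 0 to 1 per intron, was not used to choose the genes. Of 6537 introns with a value in all CFAP20-KO and WT libraries, 0 were called in limma at an adjusted p of 0.05 (0.0%), with 373 (5.71%) at an unadjusted p under 0.05. Only 1 intron of the 4 genes was listed, intron 6 of RHEB (151470653 to 151471393). Its index was 1, 0.946 and 0.926 in CFAP20-KO and 0.966 in the rescue, against 0.784, 0.934 and 0.957 in WT. The groups overlapped, and the change of 0.066 (SE 0.049, limma adjusted p = 0.92) fell to 0.012 without WT replicate 1. The depth behind an index is unknown. Over 84 other introns of distal chromosome 7 the median change was 0.006, against 0.000 over all, and 14 (16.7%) did not overlap between groups, against 11.1% of all.

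The profile of the 4 genes over the 6 CFAP20-KO and WT libraries was alike. Their log2 signals correlated at 0.999 between SYPL1 and AGBL3, at 0.992 between SYPL1 and THAP5, and at 0.930 to 0.945 between RHEB and the other 3. These points share libraries and depth, and the genes were chosen for 1 common difference. The 5 tested genes most like the mean profile were CSNK2A1 (chromosome 20, correlation 0.993), SH3TC2 (chromosome 5, 0.984), MRPS33 (0.983), IMMP2L (0.978) and MEIS2 (chromosome 15, 0.973). MRPS33, with 2.99 in CFAP20-KO and 5.12 in WT, and IMMP2L are distal chromosome 7 genes. Among the 1715 tested genes, with the 4 left out, 15 lay above a correlation of 0.95, and 7 of these were among the 29 other distal genes. The profile carries the difference the 4 genes were chosen on, so genes lower in CFAP20-KO resemble it. This count is therefore not independent of the regional values above.

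Genes that act with the 4, or belong to their families, were counted next. On a list of 58 genes of RHEB and mTORC1 signalling, 9 besides RHEB were tested, of which 2 were lower and 7 higher, with a median log2 change of 0.26 (0.17 over all tested genes), and 0 were called by either limma fit (0 at an unadjusted p under 0.05 without the run). EIF4EBP2, a translation repressor that mTORC1 phosphorylates, had 15.5, 15.9 and 15.3 in CFAP20-KO against 18.5, 16.4 and 17.0 in WT (-0.15, SE 0.27). SESN2, a leucine sensor upstream of mTORC1, had 21.6, 9.01 and 8.14 in CFAP20-KO against 11.5, 4.35 and 7.18 in WT (0.70, SE 0.49). MLST8, an mTORC1 subunit, had 10.5, 6.62 and 6.02 in CFAP20-KO against 11.9, 3.41 and 10.4 in WT (-0.01, SE 0.49). The groups overlapped in SESN2 and MLST8. The narrow gap in EIF4EBP2 was the 1 complete separation with CFAP20-KO lower among the 9, against 4.84% of all tested genes. SEH1L, also on the list, was separate the other way, as were 12.2% of all tested genes. It had 4.98, 5.02 and 5.15 in CFAP20-KO against 4.53, 3.88 and 4.07 in WT.

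On a list of 32 genes of tubulin glutamylation and detyrosination, 4 besides AGBL3 were tested, 1 lower and 3 higher, with a median of 0.40 and 0 called (0 at an unadjusted p under 0.05). TTLL1, a subunit of a tubulin polyglutamylase, had 2.17, 0.906 and 0.803 in CFAP20-KO against 1.05, 0.229 and 0.956 in WT (0.81, SE 0.57). Of 12 THAP genes, THAP6 and THAP10 were tested besides THAP5. THAP6 had 2.46, 4.78 and 5.06 in CFAP20-KO against 3.13, 4.17 and 5.25 in WT (-0.06, SE 0.36), and THAP10 had 1.40, 2.74 and 3.30 in CFAP20-KO against 2.92, 2.73 and 3.41 in WT (-0.35, SE 0.36). Neither was called, and neither had an unadjusted p under 0.05. No other synaptophysin or synaptogyrin gene of the 8 listed lay in a usable window.

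Markers of cell types could hardly be read in these windows. Of 12 retinal pigment epithelium markers 1 was tested, RLBP1, a retinaldehyde-binding protein, with 0.109, 0.017 and 0.043 in CFAP20-KO against 0.362, 0.126 and 0.177 in WT. Of 3 neuronal markers, MAP2 had 0.430, 0.878 and 0.855 in CFAP20-KO against 1.112, 2.41 and 1.36 in WT, and SYT1 had 0.969, 2.82 and 3.31 in CFAP20-KO against 1.80, 3.99 and 1.74 in WT. ELF3, 1 of 5 epithelial markers, had 0.226, 0.078 and 0.131 in CFAP20-KO against 0.509, 0.051 and 0.283 in WT. RLBP1 and MAP2 were separate between the groups, SYT1 and ELF3 overlapped, and none of the haematopoietic and endothelial markers was tested. RLBP1 and ELF3 were called lower with the run covariate, as were 4.72% of all tested genes. The signal of ELF3 in WT replicate 2, which has no weight in that fit, was below every CFAP20-KO library. RLBP1 had a mean of 0.056 in CFAP20-KO and 0.222 in WT and passed the filter of 0.0855 through WT alone, so its call is not read as a result. The part of these markers in the results above was not tested.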

How the data were processed

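Per the labels' protocols, reads were paired and 151 bp long. The submitters' processing notes name hg38, STAR 2.7.7a (an aligner) and HOMER 4.8.2. No source used here gives their parameters. The deposited tables hold signal (coverage) per 200-bp bin within 100 kb of replication origin centres or transcript start sites, scaled by the authors to a reference that is not given. These are not counts, so no counting intervals were computed. The deposited splice index is a fraction per intron.

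Origin windows were placed with the deposited list of centres, of which 2032 of 2040 were present in all 6 CFAP20-KO and WT tables. Coding genes of GENCODE 44 (canonical transcript) at least 3 kb long and at least 2 kb from any coding gene of their strand were candidates (14867). A gene was located when a window of its strand held its body, or at least 10 kb of a body over 100 kb (2032 genes). As pseudocount served 0.0855, the 10th percentile of values above 0, and 1715 genes whose mean reached it were tested. The test was limma 3.58.1 (R 4.3.3, statmod 1.5.0) with trend and robust settings, CFAP20-KO against WT, 3 libraries each, Benjamini-Hochberg at 0.05. The script was tested on simulated data.

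Same-numbered CFAP20-KO and WT replicates had deviations from their group means that correlated at 0.84, 0.58 and 0.03 for genes, so for genes the numbers do not pair libraries. By run, CFAP20-KO replicates 2 and 3 reached 0.10 and 0.03 with WT replicate 3. They reached 0.58 and 0.65 with WT replicate 2, of another run, so the gene values do not show a pairing of these libraries by run either. For the intron index, same-numbered replicates gave 0.51, 0.21 and 0.21. Differently numbered libraries reached as much, with 0.25 for CFAP20-KO replicate 2 and WT replicate 3 and 0.22 for CFAP20-KO replicate 3 and WT replicate 2. No pairing by number was therefore read from the introns either. Alternatives covered scaling, the run, the replicate number, the pseudocount, the filter, the part of the gene and each library left out. The members and lists were chosen with earlier results of these data known. Named genes were the 4 genes, up to 3 nearest tested genes on each side, LAMB1, ZNF746, IMMP2L and the 5 genes most alike. From the lists came members that passed in a fit or, at most 3, had the highest signal. SEH1L was added for its separation.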

Additional observations from a re-analysis of the deposited data

How the results depend on the processing

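The 4 genes, and the regional median relative to all genes, stayed lower in CFAP20-KO under every alternative run. With each library left out in turn the log2 change lay between -1.35 and -0.79 for SYPL1, -1.25 and -0.81 for THAP5, -0.998 and -0.70 for RHEB, and -1.62 and -0.95 for AGBL3. The regional median minus that of all genes, -0.88, lay between -0.96 and -0.77. Centring each library on its median moved the median of all genes by 0.19, to -0.02, and the 4 genes to between -1.55 and -1.05. A pseudocount of 1, which weighs low signals less, gave -0.68 for AGBL3 and -0.53 for the regional median minus that of all genes. The number of genes called depended on the fit. It was 0 higher and 0 lower without the run, with each library left out, and after CFAP20-KO replicates 2 and 3 were merged into their mean. It was 100 higher and 81 lower with the run covariate, 35 and 111 with the run and centring, 62 and 55 with the run and that mean, 81 and 60 with a replicate block, and 27 and 66 with the block and centring. Introns called were 0 and 0 in most fits, also with the replicate block, but 17 higher and 17 lower with the block and centring and 36 and 24 with the run and centring. The causes were not tested. With each library left out, the index change of RHEB intron 6 lay between 0.012 and 0.098, and the median of distal chromosome 7 introns between -0.0098 and 0.032. The replicate block left the log2 changes of the 4 genes as they were. Set against the mean of the 3 WT libraries, the rescue differed by -1.21 in SYPL1 and -1.16 in AGBL3. Depth limits AGBL3 beyond 30 kb, and a single rescue library limits that comparison.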
